A study of Mus musculus with 24 samples.

Results

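The genes of MHC class I antigen presentation were followed across mouse neural stem cells, stem cell-derived astrocytes and primary astrocytes. The 10 genes are H2-K1, H2-D1, B2m, Tap1, Tap2, Tapbp, Psmb8, Psmb9, Psmb10 and Nlrc5. They were taken by symbol as a list of known pathway genes out of 49671 counted genes, and all 10 passed the filter on low counts, which left 19691 genes for testing. RNA sequencing covered 24 libraries, 4 in each of 6 groups. Neural stem cells (NSC) came from a single line of mouse embryonic stem cells of the C57Bl/6 N strain and were kept at passages 50 to 60 in EGF and FGF, each at 20 ng/ml. The stem cell-derived astrocytes, which the labels call AGES, were the same NSC after 3 to 5 days in BMP4 at 20 ng/ml, without EGF and FGF. Primary astrocytes came from C57BL/6J mice, as neonatal astrocytes (neoAC) from pups of 4 to 8 days or as adult astrocytes (AdAC) from mice of 100 to 140 days. They were pulled out of dissociated brain with magnetic beads against the astrocyte surface antigen ACSA-2 and either frozen at once (neoAC direct, AdAC direct) or grown for 7 to 10 days in an astrocyte medium (neoAC CellC, AdAC CellC). A primary replicate is an isolation from 2 pooled mice of mixed sexes, and an NSC or AGES replicate is a culture from another passage of the same line. The labels name no transgene or deletion in any group.

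Nearly every nucleated cell can display peptides of its own proteins on MHC class I molecules, which are read by CD8 T cells and natural killer cells. Peptides are cut by the proteasome, pumped into the endoplasmic reticulum by the transporter TAP, loaded with the help of tapasin onto a heavy chain paired with beta-2-microglobulin, and carried to the surface. Cells of the healthy brain are known for low class I expression, and interferons are the best known inducers, through IRF1 and the transactivator NLRC5.

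The libraries held 27904126 to 37997368 counts (median 32239904), so that 3 counts correspond to 0.0786 to 0.117 CPM, the counts of a gene relative to the scaled total of its library, and this floor covers counting error only. All levels below are CPM scaled by the trimmed mean of M-values (TMM), given as mean ± SD with n = 4 libraries. Summed astrocyte markers (8 genes, among them Aqp4, Gja1, Slc1a3 and Gfap) reached 51718 to 56803 CPM in AGES, 13701 to 14327 in AdAC direct, 19081 to 22473 in neoAC direct and 7021 to 8229 in neoAC CellC, but 867 to 1322 in AdAC CellC, below the 1643 to 2021 of NSC. A few abundant genes carry this sum, and between AGES and neoAC CellC 2 of the 8 markers were higher in AGES, 4 lower and 2 did not pass (median log2 fold change -0.22). Other cell types were present in the primary groups. The 6 oligodendrocyte markers summed to 25603 to 28424 CPM in AdAC direct, 4092 to 10432 in AdAC CellC and at most 394 in any other group. The 10 microglia and macrophage markers summed to 20.4 to 35.3 CPM in AdAC CellC, 18.6 to 27.5 in AdAC direct, 12.8 to 70.2 in neoAC direct, 5.07 to 9.92 in neoAC CellC, and at most 1.79 in NSC and AGES, where Fcrls was at 0 in every library. The 7 mural, fibroblast and meningeal markers summed to 1913 to 2373 CPM in AdAC CellC, 598 to 1085 in neoAC CellC, 358 to 658 in both direct groups and at most 9.68 in NSC and AGES. The 7 endothelial markers summed to 93.0 to 365 CPM in the direct groups, 46.7 to 76.3 in the cultured primary groups and at most 6.74 in NSC and AGES. The 4 ependymal and choroid markers summed to 1760 to 2713 CPM in neoAC CellC, 673 to 1350 in neoAC direct, 962 to 1141 in AdAC direct, 421 to 609 in AdAC CellC and at most 78.1 in NSC and AGES. The 5 neuron markers summed to 164 to 238 CPM in AdAC CellC, 36.1 to 70.9 in the other primary groups and at most 45.7 in NSC and AGES. The 7 lymphocyte markers never summed to more than 1.68 CPM. In bulk libraries such as these, fewer expressing cells and less RNA per cell cannot be told apart, and the part of these other cells in the results below was not tested.

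Of the 10 genes, 7 lie on chromosome 17, in the mouse MHC (GRCm38, Gencode vM21). Tapbp (chr17:33915899-33929292, plus strand) and H2-K1 (chr17:33996017-34000347, minus strand) stand at the near end. Psmb9 (chr17:34181987-34187764, minus strand), Tap1 (chr17:34187553-34197225, plus strand), Psmb8 (chr17:34197721-34201454, plus strand) and Tap2 (chr17:34203527-34216321, plus strand) form a tight cluster, and H2-D1 (chr17:35262730-35267499, plus strand) lies further along. B2m is on chromosome 2 (chr2:122147686-122153083, plus strand), and Psmb10 (chr8:105935735-105938444, minus strand) and Nlrc5 (chr8:94434356-94527272, plus strand) are on chromosome 8. Exons of Tap1 and Psmb9 overlap by 212 bases on opposite strands, and those of Tap2, Tapbp, Psmb8 and Nlrc5 overlap other genes on the opposite strand by 78 to 904 bases. Tapbp also overlaps Zbtb22 on the same strand by 149 bases. The strand setting of the counting is not given in the sources used here, so how reads from these stretches were counted is not known. Of all 100-base windows in their transcripts, 3.59% for H2-D1 and 0.957% for H2-K1 occur in other class I genes, and 14.8% for Tapbp occur in Gm19412 or AC122861.4. B2m, Psmb10 and Nlrc5 shared none.

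RefSeq promoter windows around the start site (GRCm38.p6) were at hand for 8 of the 10 genes, all but Tap2 and Nlrc5. They were searched on both strands for letters bound by the factors of interferon and NF-kappa B signalling. The kappa B letters (GGGGA, any 2 bases, CCC) occurred in H2-K1 and H2-D1 and in 1.65% of all 32851 promoters. The interferon-stimulated response element letters (GAAA, any 2 bases, GAAA) occurred in B2m and in 3.44% of all promoters, and the gamma-activated site letters TTCNNNGAA in Psmb8 and in 8.3%. The letters CCAAT, found in 6 of the 8, occurred in 37.4%. A match is a description of letters in this window only. The stretches with these matches are shown 5′ to 3′ on the strand of the gene, with the matching bases in capitals, because the heavy chain genes turn out to share theirs. All lie before the RefSeq start site, but by the Gencode positions above the H2-D1 and Psmb8 stretches lie inside the gene. The stretches are H2-K1 at chr17:34000448-34000547 (minus strand), H2-D1 at chr17:35262904-35262933 (plus strand), B2m at chr2:122147487-122147586 (plus strand) and Psmb8 at chr17:34198087-34198116 (plus strand).
H2-K1: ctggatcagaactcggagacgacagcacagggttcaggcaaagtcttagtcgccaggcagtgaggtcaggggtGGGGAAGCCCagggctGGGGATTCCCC
H2-D1: ggtGGGGAAGCCCagggctGGGGATTCCCC
B2m: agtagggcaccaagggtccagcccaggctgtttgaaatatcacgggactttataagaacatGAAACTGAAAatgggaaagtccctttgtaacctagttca
Psmb8: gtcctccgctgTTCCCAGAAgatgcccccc
The last 30 bases of the H2-K1 stretch and the 30 bases of H2-D1 were identical at 30 positions. In both, the second run of capitals holds overlapping kappa B matches, on the plus and on the minus strand of the gene.

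**Figure D1:**
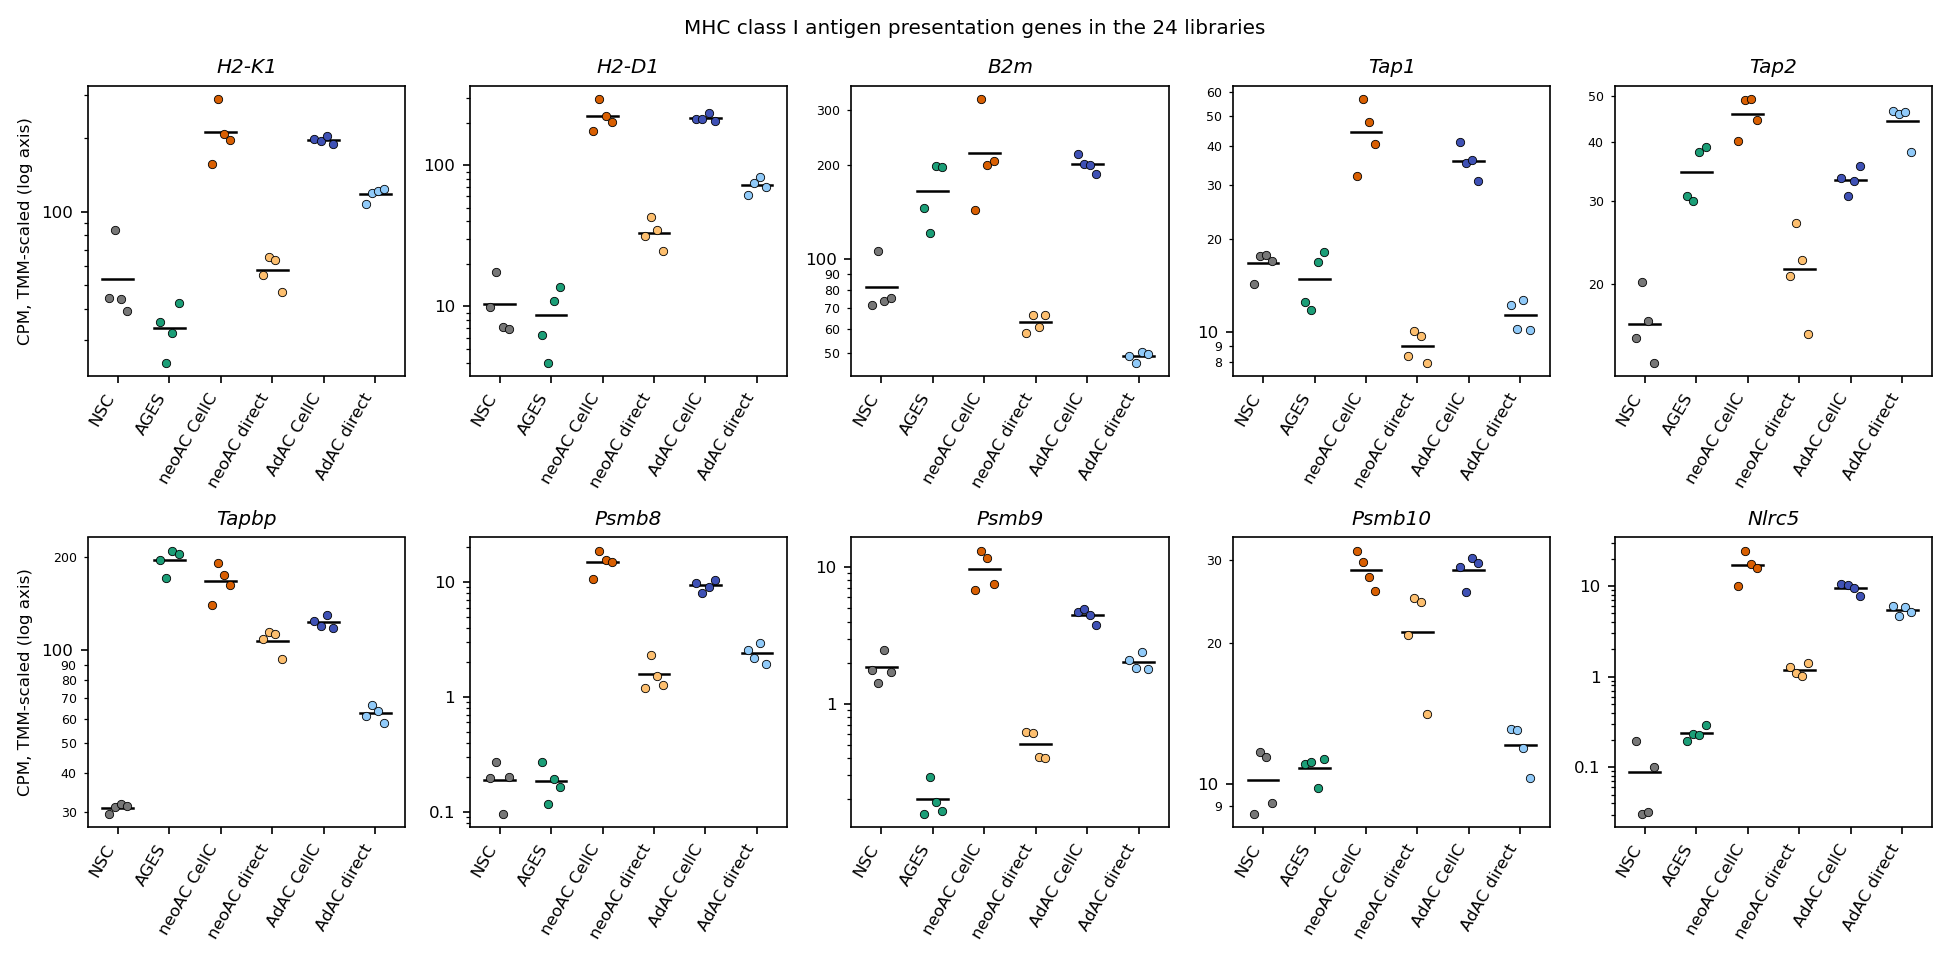
Levels of the 10 genes in the 24 libraries, in TMM-scaled CPM on log axes that differ between panels. Points are libraries and bars the means of 4. The cultured primary groups sit highest for 8 genes, Tapbp is highest in AGES (172 to 210 CPM), and Tap2 is as high in AdAC direct as in neoAC CellC. Psmb8 and Nlrc5 lie near the floor in NSC and AGES, as does Psmb9 in AGES.

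Cultured astrocytes were compared with directly isolated astrocytes of the same age, to see how the pathway differs between the 2 states. In neonatal astrocytes all 10 genes were higher in culture (edgeR quasi-likelihood test, Benjamini-Hochberg adjusted p under 0.05), where 34.4% of all genes tested were higher and 31.3% lower, and no library of one group overlapped the other for any of them. In adult astrocytes 9 were higher and Tap2 was lower, where 38.8% of all genes were higher and 39.2% lower, again without overlap for any of the 10. The share of all genes without overlap was not counted, here or below, so whether such separation is particular to these genes is not known. The median log2 fold change of the 10 genes was 2.09 in neonatal and 1.19 in adult astrocytes, against 0.041 and 0.00 over all genes tested. Of the 8 astrocyte markers, 7 were lower in adult culture and 0 higher (median log2 fold change -3.10). In neonatal culture 6 were lower and 1 higher (median -1.01). The part of this marker difference in the values below was not tested.

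Among the class I molecules themselves, the classical heavy chains H2-K1 and H2-D1 rose with culture at both ages. H2-K1 measured 157, 289, 207 and 197 CPM in neoAC CellC and 55.1, 65.2, 63.6 and 47.0 in neoAC direct. The lowest cultured library was more than the highest direct one, and the fold change was 3.68 (log2 fold change 1.88, SE 0.21, adjusted p = 3.33e-08). In adult astrocytes H2-K1 measured 198, 195, 204 and 189 CPM in culture and 107, 120, 122 and 124 directly after isolation, a 1.67-fold difference (log2 0.74, SE 0.20, adjusted p = 0.00197). H2-D1 measured 173, 293, 223 and 203 CPM in neoAC CellC and 31.3, 42.8, 34.5 and 24.5 in neoAC direct. It was thus 6.70-fold higher in culture (log2 2.74, SE 0.29, adjusted p = 3.52e-08), the larger change of the heavy chains. In adult astrocytes it measured 213, 211, 234 and 207 CPM in culture against 61.0, 74.3, 82.8 and 70.4, and was 3.00-fold higher (log2 1.58, SE 0.28, adjusted p = 2.63e-05).

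B2m, the invariant light chain without which heavy chains do not reach the surface, rose about as much at both ages. It measured 144, 325, 200 and 206 CPM in neoAC CellC and 58.2, 66.5, 60.8 and 66.6 in neoAC direct (log2 fold change 1.80, SE 0.18, adjusted p = 7.11e-09). In adult astrocytes it measured 217, 202, 200 and 187 CPM in culture and 49.1, 46.7, 50.6 and 49.7 directly after isolation (log2 2.04, SE 0.18, adjusted p = 4.87e-10). The 4 neoAC CellC libraries were widely spread, replicate 2 being the highest and replicate 1 the lowest for B2m, H2-K1 and H2-D1, while the adult cultures lay close together.

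The peptide transporter and its partner behaved less alike. Tap1, the first half-transporter of TAP, measured 31.9, 56.8, 47.8 and 40.7 CPM in neoAC CellC and 8.39, 10.1, 9.68 and 7.95 in neoAC direct (log2 2.29, SE 0.16, adjusted p = 3.18e-12). It measured 41.4, 35.3, 36.0 and 30.9 CPM in AdAC CellC and 12.2, 10.2, 12.7 and 10.2 in AdAC direct (log2 1.67, SE 0.16, adjusted p = 4.26e-10). Tap2, the other half-transporter, rose in neonatal and fell in adult astrocytes. It measured 40.2, 49.1, 49.3 and 44.6 CPM in neoAC CellC and 20.8, 26.9, 22.5 and 15.6 in neoAC direct (log2 1.09, SE 0.13, adjusted p = 9.30e-08). In adult astrocytes it measured 33.5, 30.7, 33.0 and 35.6 CPM in culture and 46.5, 45.9, 46.3 and 38.1 directly after isolation (log2 -0.41, SE 0.13, adjusted p = 0.00627). The lowest of the direct adult libraries, replicate 4, was still above every cultured adult library. Tapbp, which encodes tapasin, the protein that bridges TAP and the empty class I molecule, was 1.97-fold higher in adult culture (123 ± 5.07 against 62.5 ± 3.57 CPM, adjusted p = 1.25e-10) and 1.56-fold higher in neonatal culture (168 ± 21.8 against 108 ± 9.61 CPM, adjusted p = 3.28e-07).

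The immunoproteasome subunits take the place of the constitutive catalytic subunits and change which peptides are cut. Psmb9 changed most in neonatal astrocytes, with 6.77, 13.2, 11.6 and 7.48 CPM in culture and 0.618, 0.609, 0.408 and 0.399 directly after isolation. That is an 18.9-fold difference (log2 4.24, SE 0.25, adjusted p = 1.22e-13), while in adult astrocytes it was 2.20-fold, from 2.09, 1.82, 2.38 and 1.81 CPM to 4.67, 4.93, 4.46 and 3.79 (log2 1.14, SE 0.21, adjusted p = 2.98e-05). Psmb8 was 9.45-fold higher in neonatal culture (15 ± 3.33 against 1.57 ± 0.50 CPM, adjusted p = 1.20e-12) and 3.89-fold higher in adult culture (9.35 ± 1.02 against 2.40 ± 0.44 CPM, adjusted p = 2.79e-09). Psmb10 had the smallest neonatal change of the 10 genes, 1.36-fold (28.6 ± 2.47 against 21.1 ± 4.98 CPM, adjusted p = 0.00559), and was 2.37-fold higher in adult culture (28.7 ± 2.05 against 12.1 ± 1.30 CPM, adjusted p = 9.28e-09).

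Nlrc5, the transactivator of class I genes, measured 9.92, 24.6, 17.6 and 15.9 CPM in neoAC CellC and 1.27, 1.11, 1.02 and 1.40 in neoAC direct. It was 14.2-fold higher in neonatal culture (log2 3.82, SE 0.24, adjusted p = 3.52e-13). In adult astrocytes it measured 10.7, 10.2, 9.51 and 7.82 CPM in culture and 6.03, 4.73, 5.88 and 5.11 directly after isolation, a 1.76-fold difference (log2 0.81, SE 0.20, adjusted p = 0.000876). The direct neonatal libraries were the low point here, and the direct adult ones lay between them and the cultures.

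Whether the culture difference was the same at both ages was tested as an interaction, the adult effect minus the neonatal effect. The adult effect was smaller for 7 of the 10 genes and larger for 2, where 33.2% of all genes tested were lower and 35.4% higher, and the median over the 10 genes was -1.15 against 0.046 over all genes. The gap was widest for Psmb9 (log2 difference -3.10, SE 0.32, adjusted p = 5.88e-09) and Nlrc5 (-3.01, SE 0.31, adjusted p = 3.90e-09). It was -1.51 (SE 0.19) for Tap2, -1.28 (SE 0.29) for Psmb8, -1.16 (SE 0.39) for H2-D1, -1.14 (SE 0.28) for H2-K1 and -0.63 (SE 0.22) for Tap1, with adjusted p from 1.16e-07 to 0.0129. Psmb10 went the other way (0.80, SE 0.19, adjusted p = 0.000669), as did Tapbp (0.34, SE 0.12, adjusted p = 0.0154), although that call was lost under 5 alternative settings, at adjusted p of 0.0547 to 0.165. B2m did not pass (0.24, 95% interval -0.28 to 0.76, adjusted p = 0.406), and without replicate 2 of neoAC CellC it did (0.51, adjusted p = 0.0325). By the study's methods adult and neonatal brains were dissociated with different enzyme kits, whereas the labels name 1 kit for both, so that age and kit cannot be told apart. Markers of other cells also differed between the ages in their culture change, in both directions. Of the 4 ependymal and choroid markers, 3 were higher in neonatal culture (median 2.42) and 3 lower in adult culture (median -2.49), and of the 6 oligodendrocyte markers 5 were higher and 1 lower in neonatal culture (median 1.29) and 5 lower in adult culture (median -1.98). By the interaction term the medians were -5.12 for ependymal and choroid, -3.48 for oligodendrocyte and -0.36 for neuron markers. The median was on the other side for microglia and macrophage (2.87), endothelial (3.00) and mural, fibroblast and meningeal markers (0.47). The part of these other cells in the interaction was not tested.

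**Figure D2:**
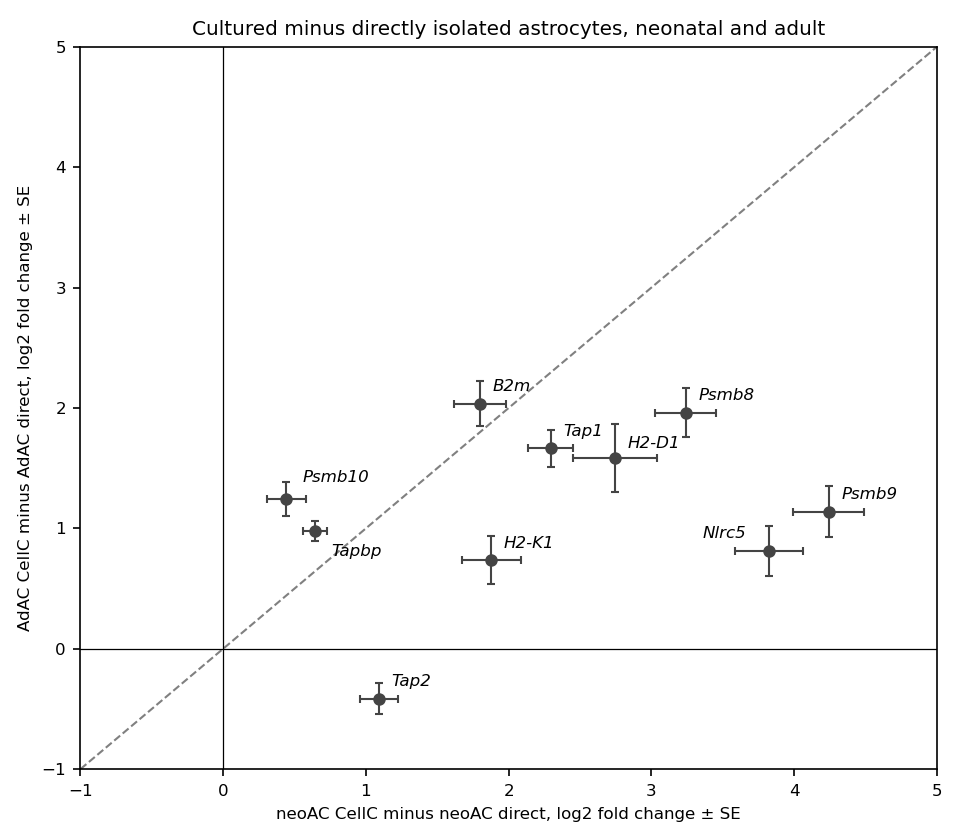
Log2 fold change of each gene between cultured and directly isolated astrocytes, neonatal on the x axis and adult on the y axis, with standard errors. The dashed line marks equal change. Psmb9 (4.24 and 1.14) and Nlrc5 (3.82 and 0.81) lie furthest below it, Tap2 lies below 0 in the adult comparison, and B2m, Tapbp and Psmb10 lie above the line.

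AGES were compared with the NSC they came from, to see how the pathway differs before and after differentiation. B2m, Tap2, Tapbp and Nlrc5 were higher in AGES, H2-K1 and Psmb9 were lower, and 4 did not pass, where 31.7% of all genes were higher and 34.0% lower. The median of the 10 genes was 0.00, as it was over all genes. Tapbp was 6.31-fold higher, with 195, 172, 210 and 205 CPM in AGES and 29.5, 31.1, 31.8 and 31.5 in NSC (log2 2.66, SE 0.09, adjusted p = 1.25e-18). Of all 10 genes, Tapbp alone had its highest group mean in AGES.

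B2m measured 145, 121, 198 and 197 CPM in AGES and 71.2, 106, 73.5 and 75.4 in NSC (log2 1.02, SE 0.18, adjusted p = 2.13e-05). Every AGES library was above every NSC library, though NSC replicate 2 stood apart from the other NSC. Tap2 measured 30.7, 30.0, 38 and 39.1 CPM in AGES and 15.3, 20.2, 16.7 and 13.6 in NSC (log2 1.07, SE 0.14, adjusted p = 1.26e-07). The heavy chains did not share this rise. H2-K1 measured 35.5, 24.2, 32.1 and 42.4 CPM in AGES and 44.4, 84.4, 44.2 and 39.3 in NSC. The groups overlapped, the difference was 1.58-fold lower in AGES (log2 -0.66, SE 0.20, adjusted p = 0.00645), and without NSC replicate 2 it did not pass (log2 -0.35, adjusted p = 0.0652). Over all alternatives its adjusted p ran from 0.00205 to 0.0753, the highest in a fit of these 2 groups alone. H2-D1 measured 6.32, 4.00, 10.96 and 13.8 CPM in AGES and 9.88, 17.4, 7.13 and 6.89 in NSC, and did not pass (log2 -0.24, 95% interval -0.88 to 0.40, adjusted p = 0.510). Tap1 (14.8 ± 3.17 and 16.7 ± 1.61 CPM) and Psmb10 (10.8 ± 0.69 and 10.2 ± 1.58 CPM) did not pass either, with 95% intervals of -0.48 to 0.15 and -0.21 to 0.37 on the log2 scale.

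Psmb9 was nearly lost in AGES. It measured 0.156, 0.290, 0.192 and 0.165 CPM there, from 4, 10, 6 and 5 counts, against 1.76, 1.43, 2.48 and 1.71 CPM in NSC, an 8.87-fold difference (log2 -3.15, SE 0.30, adjusted p = 7.45e-10). Psmb8 was about as low in both, with 7, 4, 6 and 5 counts in AGES and 6, 9, 3 and 6 in NSC, so that a difference was hardly detectable at this depth (log2 -0.078, 95% interval -0.97 to 0.81, adjusted p = 0.908). Nlrc5 had 5, 8, 7 and 9 counts in AGES and 6, 1, 1 and 3 in NSC. Its call as higher in AGES (log2 1.39, SE 0.53, adjusted p = 0.0228) rests on these few counts, the groups overlapped, and it was lost without NSC replicate 2 (log2 1.10, adjusted p = 0.0884), NSC replicate 3 (log2 1.13, adjusted p = 0.0787) or AGES replicate 4 (log2 1.28, adjusted p = 0.0616).

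**Figure D3:**
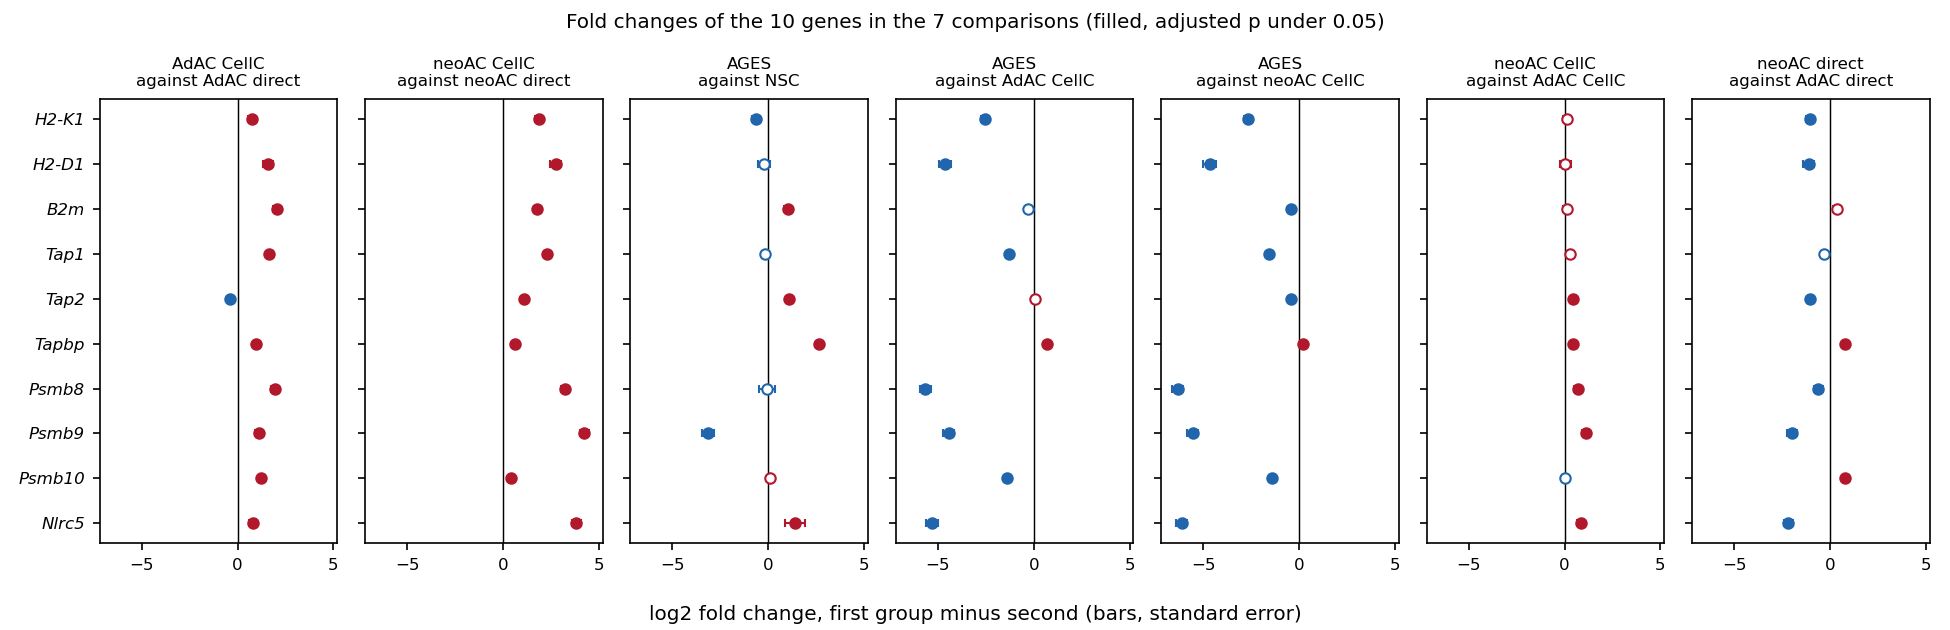
Log2 fold change of the 10 genes in the 7 comparisons, first group minus second, with standard errors. Filled points passed an adjusted p of 0.05 in edgeR's test, red points are above 0 and blue points below. AGES lay 4.42 to 6.34 log2 units below the cultured primary astrocytes for H2-D1, Psmb8, Psmb9 and Nlrc5 and above both for Tapbp.

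AGES were then set against the cultured primary astrocytes, the other astrocyte cultures of the study. In AdAC CellC the summed astrocyte markers (867 to 1322 CPM) lay below those of NSC (1643 to 2021 CPM), as given above. Against AdAC CellC, 7 genes were lower in AGES and Tapbp was higher, where 45.2% of all genes were lower and 31.0% higher. Against neoAC CellC, 9 were lower and Tapbp was higher, where 40.5% of all genes were lower and 34.1% higher. The medians of the 10 genes were -1.98 and -2.12 against -0.23 and -0.070 over all genes. These comparisons share the AGES libraries, so their values stand side by side and are not independent of each other. AGES differ from the primary cultures in origin, medium and time in culture together, which cannot be told apart, and the primary cultures held the summed ependymal, mural, oligodendrocyte, neuron, endothelial and microglia markers given above, which were lower in AGES.

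Psmb8 showed the widest gap, with 0.186 ± 0.066 CPM in AGES against 9.35 ± 1.02 in AdAC CellC and 15 ± 3.33 in neoAC CellC (log2 -5.66, SE 0.28, adjusted p = 1.60e-15, and -6.34, SE 0.28, adjusted p = 1.38e-16). Nlrc5 stood at 0.237 ± 0.043 CPM in AGES against 9.55 ± 1.24 and 17.0 ± 6.02 (log2 -5.30, SE 0.29, and -6.14, SE 0.29). Psmb9 stood at 0.201 ± 0.062 CPM against 4.46 ± 0.49 and 9.75 ± 3.12 (log2 -4.42, SE 0.29, and -5.55, SE 0.28). H2-D1 was 24.7-fold and 25.5-fold lower in AGES, at 8.76 ± 4.41 CPM against 216 ± 11.96 and 223 ± 50.7, while H2-K1 was 5.87-fold and 6.34-fold lower. Tap1 was 2.42-fold and 2.99-fold lower, and Psmb10 2.65-fold and 2.64-fold lower. For these 7 genes no AGES library reached the level of any cultured primary library. The share of all genes separated in this way was not counted.

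B2m, Tap2 and Tapbp were the exceptions. B2m in AGES (165 ± 38.5 CPM) overlapped both cultures (201 ± 12.3 and 219 ± 76.1 CPM). It did not pass against AdAC CellC (log2 -0.28, 95% interval -0.65 to 0.08, adjusted p = 0.148), and scaled to library size alone it did (log2 -0.51, adjusted p = 0.0104). It passed against neoAC CellC (log2 -0.40, SE 0.18, adjusted p = 0.0425), but not without neoAC CellC replicate 2 (log2 -0.15, adjusted p = 0.373), AGES replicate 2 (log2 -0.28, adjusted p = 0.157), AGES replicate 1 (adjusted p = 0.107) or neoAC direct replicate 4 (adjusted p = 0.0504), nor with no filter (0.128) or in a fit of only the 2 groups (0.126). Tap2 (34.5 ± 4.76 CPM in AGES) did not pass against AdAC CellC (33.2 ± 1.98 CPM, log2 0.055, 95% interval -0.22 to 0.33, adjusted p = 0.716) and was lower than in neoAC CellC (45.8 ± 4.33 CPM, log2 -0.41, SE 0.13, adjusted p = 0.00695). Tapbp was 1.59-fold higher in AGES than in AdAC CellC (log2 0.67, SE 0.08, adjusted p = 9.96e-08). Against neoAC CellC its difference was small (log2 0.22, SE 0.08, adjusted p = 0.0204), did not pass without AGES replicate 3 (adjusted p = 0.0712), AGES replicate 4 (adjusted p = 0.0566) or neoAC CellC replicate 1 (adjusted p = 0.107), and changed sign when scaled to library size alone (log2 -0.084, adjusted p = 0.360), a scaling that moved the median of all genes in this comparison from -0.070 to -0.37.

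Neonatal and adult astrocytes were compared in culture and directly after isolation, to see how the pathway differs with age. In culture, Tap2, Tapbp, Psmb8, Psmb9 and Nlrc5 were higher in neonatal astrocytes and none of the 10 was lower, where 28.5% of all genes were higher and 35.2% lower. The median of the 10 genes was 0.37 against -0.085 over all genes. Psmb9 had the largest difference, 2.19-fold (log2 1.13, SE 0.20, adjusted p = 2.45e-05), followed by Nlrc5 with 1.78-fold (log2 0.83, SE 0.20, adjusted p = 0.000741), whose groups overlapped. Psmb8 was 1.61-fold, Tap2 1.38-fold and Tapbp 1.36-fold higher. The 95% intervals of H2-K1 (-0.30 to 0.52), H2-D1 (-0.52 to 0.61), B2m (-0.24 to 0.49) and Psmb10 (-0.28 to 0.27) held 0. Tap1 did not pass (log2 0.30, adjusted p = 0.0769), but passed under 5 alternative settings, at adjusted p of 0.0216 to 0.0294, and without neoAC CellC replicate 1 (0.00982) or AdAC CellC replicate 1 (0.0409).

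Directly after isolation, age went mostly the other way. H2-K1, H2-D1, Tap2, Psmb8, Psmb9 and Nlrc5 were lower in neonatal astrocytes, Tapbp and Psmb10 were higher, and B2m and Tap1 did not pass, where 36.4% of all genes were lower and 35.0% higher. The median of the 10 genes was -0.81 against 0.00. Nlrc5 was 4.53-fold lower in neonatal astrocytes (log2 -2.18, SE 0.23, adjusted p = 7.77e-09) and Psmb9 3.93-fold lower (log2 -1.98, SE 0.26, adjusted p = 1.77e-07). H2-K1, H2-D1 and Tap2 were 2.04-fold, 2.17-fold and 2.06-fold lower. Psmb8 was 1.51-fold lower (adjusted p = 0.0172) with overlapping groups, a call lost without neoAC direct replicate 1 (adjusted p = 0.0659), neoAC direct replicate 4 (0.0572) or AdAC direct replicate 3 (0.0701), and in a fit of the 2 groups alone (0.0518). Tapbp and Psmb10 were 1.72-fold and 1.74-fold higher. B2m was higher in every neonatal than in every adult library but did not pass in the fit of all groups (log2 0.36, SE 0.18, adjusted p = 0.0750), while a fit of these 2 groups alone called it (log2 0.39, adjusted p = 0.000512). It also passed in the fit of all groups without neoAC CellC replicate 1 (adjusted p = 0.0324) or neoAC CellC replicate 2 (0.0184). Tap1 was lower in every neonatal than in every adult library and did not pass either (log2 -0.32, SE 0.16, adjusted p = 0.0694), but did in the fit of 2 groups (0.0489) and scaled to library size alone (0.0261). AdAC direct libraries carried 25603 to 28424 CPM of oligodendrocyte markers against 321 to 394 in neoAC direct, and the part of this in the age difference was not tested.

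Ordered by mean level, the 6 groups gave 50 neighbouring pairs over the 10 genes, of which 18 did not pass the test. In 3 of these 18 no library overlapped all the same, namely NSC above neoAC direct and neoAC direct above AdAC direct for B2m, and AdAC direct above neoAC direct for Tap1. The pairs that no comparison above covers come from contrasts in which 70.7% to 86.2% of all genes were called. AdAC CellC against neoAC direct had 70.7% called, AGES against neoAC direct 73.8%, neoAC CellC against AdAC direct 74.0%, NSC against AdAC CellC 77.3%, NSC against neoAC direct 80.0%, AGES against AdAC direct 80.4% and NSC against AdAC direct 86.2%. H2-K1 fell from neoAC CellC (212 ± 55.3 CPM) and AdAC CellC (197 ± 6.39), whose difference did not pass, through AdAC direct (118 ± 7.44) to neoAC direct (57.7 ± 8.41) and NSC (53.0 ± 21.03), whose difference did not pass, and AGES (33.5 ± 7.57). H2-D1 had the same order of groups, and here neoAC direct (33.3 ± 7.57 CPM) lay above NSC (10.3 ± 4.92, adjusted p = 2.32e-05), whose difference from AGES did not pass. B2m was lowest in the direct groups (49.0 ± 1.66 in AdAC direct, 63.0 ± 4.21 in neoAC direct), and Tap1 likewise (11.3 ± 1.30 and 9.02 ± 1.02).

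For Tap2, neoAC CellC (45.8 ± 4.33 CPM) and AdAC direct (44.2 ± 4.06) stood at the top and did not pass, and NSC (16.4 ± 2.80) stood lowest. For Psmb9, AdAC direct (2.02 ± 0.27 CPM) and NSC (1.84 ± 0.45) stood in the middle of the order and did not pass, and NSC lay above neoAC direct (0.508 ± 0.121, adjusted p = 4.24e-07). All 5 steps passed for Tapbp, from AGES down to NSC. All 5 passed for Nlrc5, from neoAC CellC down through AdAC CellC, AdAC direct, neoAC direct and AGES to NSC. The step from AGES to neoAC CellC for Tapbp overlapped, and its call was lost in some alternatives, as given above. So was the call of the step from AGES to NSC for Nlrc5, which overlapped as well and rests on few counts. The whole range from lowest to highest group mean was 190-fold for Nlrc5, whose NSC libraries held 6, 1, 1 and 3 counts, 80.4-fold for Psmb8, 48.6-fold for Psmb9 and 25.5-fold for H2-D1, but 2.79-fold for Tap2 and 2.80-fold for Psmb10.

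Levels of different genes were compared per kb of exon, with the exons of all annotated transcripts of a gene merged. This length was 3381 bases for Psmb8, 3660 for Psmb9 and 1705 for Psmb10, so orders between genes depend on the annotation. B2m was highest in every group, from 57.0 CPM per kb in AdAC direct to 255 in neoAC CellC. In the cultured groups H2-D1 exceeded H2-K1 (86.6 and 72.3 CPM per kb in neoAC CellC, 83.8 and 66.9 in AdAC CellC). In the other groups H2-K1 exceeded H2-D1, with 40.2 and 27.97 CPM per kb in AdAC direct, 19.6 and 12.9 in neoAC direct, 18.1 and 4.01 in NSC, and 11.4 and 3.40 in AGES. Tapasin was above both heavy chains in AGES (53.9 CPM per kb) and in neoAC direct (29.6), and below both in the cultured primary groups (46.2 in neoAC CellC and 33.9 in AdAC CellC). These orders are descriptions and were not tested.

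How far the immunoproteasome subunits stood beside the constitutive subunits they replace was read as a ratio per kb of exon within each library, Psmb8 over Psmb5, Psmb9 over Psmb6 and Psmb10 over Psmb7. Such a ratio does not depend on the scaling between libraries. Its size, and so the contrast between the ratios, does depend on the merged exon lengths, which are the same in every group. An exact two-sided permutation test of 4 against 4 libraries, whose smallest possible p is 0.0286 (0.0353 after adjustment over 21 tests), passed in 17 of 21. Psmb8 was 3.09, 7.22, 5.33 and 5.71% of Psmb5 in neoAC CellC and 2.84, 2.48, 2.63 and 3.08% in AdAC CellC. It was 0.505, 0.896, 0.573 and 0.765% in neoAC direct and 1.69, 1.23, 1.68 and 1.18% in AdAC direct, below the cultures in every library. In AGES and NSC it was 0.097% ± 0.035 and 0.065% ± 0.026 (SD, n = 4). Psmb9 was 1.82, 3.97, 3.34 and 2.31% of Psmb6 in neoAC CellC and 0.213% ± 0.047 in neoAC direct (exact permutation test, adjusted p = 0.0353). In adult astrocytes, where Psmb6 itself was 1.85-fold higher in culture, Psmb9 was 1.34% ± 0.13 of Psmb6 in culture and 1.13% ± 0.17 directly after isolation, which did not pass (exact permutation test, adjusted p = 0.126). In NSC it was 0.971% ± 0.166 and in AGES 0.154% ± 0.051, without overlap. Psmb10 was on another scale, with 56.0% ± 4.95 of Psmb7 in neoAC CellC, 46.7% ± 2.35 in AdAC CellC, 41.2% ± 10.4 in neoAC direct, 33.1% ± 3.72 in AdAC direct, 15.04% ± 1.58 in AGES and 10.2% ± 1.01 in NSC. The tests that did not pass were Psmb8 over Psmb5 in AGES against NSC (adjusted p = 0.286), Psmb9 over Psmb6 in adult culture, and Psmb10 over Psmb7 in neoAC CellC against neoAC direct (0.0667) and in neoAC direct against AdAC direct (0.270), all by the exact permutation test.

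**Figure D4:**
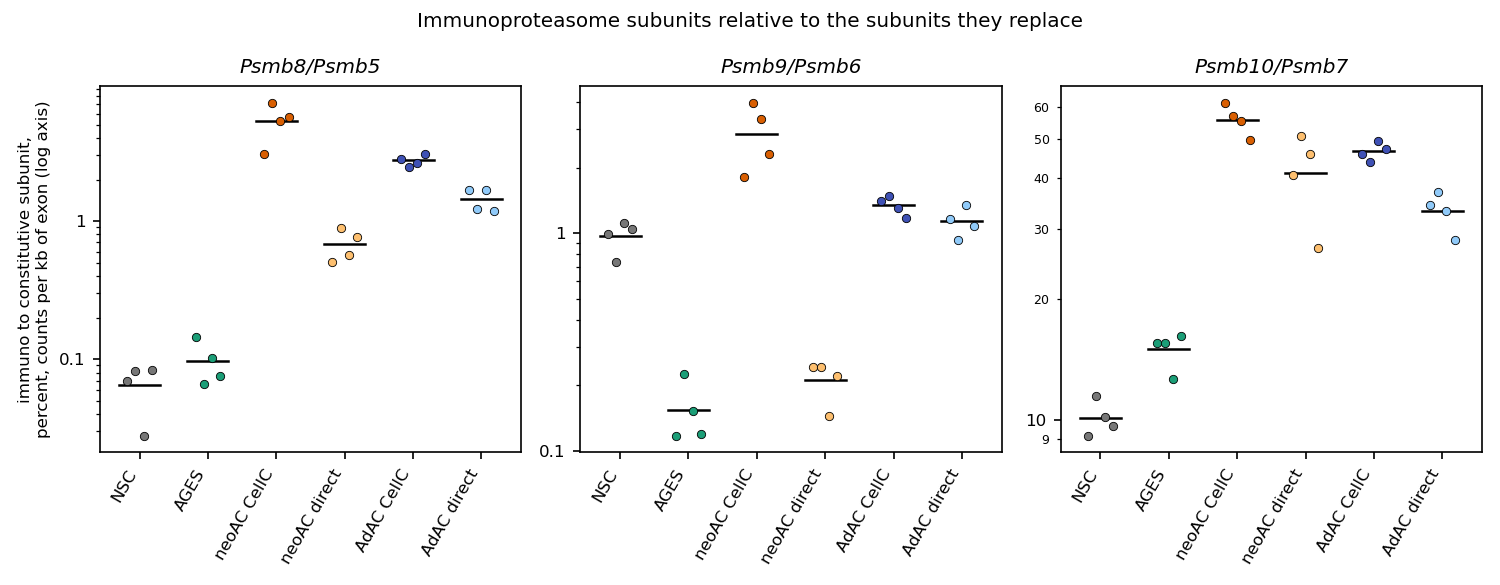
Immunoproteasome subunit as a percentage of the constitutive subunit it replaces, per kb of exon, on log axes that differ between panels. Points are libraries and bars the means of 4. Psmb8 over Psmb5 spans 0.065% in NSC to 5.34% in neoAC CellC, and Psmb10 over Psmb7 spans 10.2% to 56.0%, as group means.

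Over the 24 libraries, the log2 levels of the 45 pairs of these genes had a median Pearson r of 0.61 (-0.09 to 0.98). The points share their 6 groups, so that r also carries the differences between groups. With group means taken out the median was 0.41 (-0.49 to 0.86), and 38 of 45 pairs were above 0. The pairs share their genes and are not independent. The same was not computed for other genes, so whether this is particular to these genes is not known. H2-K1 and H2-D1 had r of 0.97 over all libraries and 0.86 within groups. H2-D1 and Psmb8 had the highest r over all libraries (0.98, and 0.53 within groups). Nlrc5 had r of 0.95 with H2-D1 and 0.96 with Psmb8 over all libraries, but 0.08 and 0.20 within groups.

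Genes outside the list with the most similar pattern over the 24 libraries were picked by Pearson r of log2 CPM. H2-Q7, a neighbouring class I gene, ranked first for H2-D1 (r = 0.98, Spearman rho 0.95) and the second for H2-K1 (0.95 and 0.96). It shares 100-base windows with both, so reads may be shared as well. Dusp14, which encodes a phosphatase, ranked first for H2-K1 (0.97 and 0.93). Fbln5 and Trim6 (both 0.99) were the most similar to Psmb8, followed by Bst2 (0.98 and 0.96), which encodes the interferon-induced antiviral protein tetherin. Dhx58, which encodes the RNA sensor LGP2, was among those of Psmb9 (0.94 and 0.94), after Nudc (0.97) and Cfap298 (0.95). Rassf4 ranked first for Nlrc5, followed by Oasl2 (0.98 and 0.96), of the interferon-induced oligoadenylate synthetase family, and Fam241b. Those of Tapbp were Mfap5, Atoh8 and Cnn3 (0.97 to 0.98), those of B2m Pqlc3, C1ra and Ajuba (0.94 to 0.95), those of Tap1 Bola3, Odc1 and St5 (0.94 to 0.95), those of Tap2 BC005624, Gm867 and Lrrc51 (0.93 to 0.96) and those of Psmb10 Col4a6, Icam1 and Shisa3 (0.94).

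Other class I and class I-like genes (16 of 19 tested) were counted in the same way. In neonatal culture 11 were higher, 2 lower and 3 did not pass (median log2 fold change 1.38), where 34.4% of all genes were higher and 31.3% lower. In adult culture 8 were higher, 4 lower and 4 did not pass (median 0.84), where 38.8% were higher and 39.2% lower. H2-Q4 was 1.91 log2 units higher in neonatal and 1.88 in adult culture (SE 0.21 in both). H2-T23, the ligand of inhibitory natural killer receptors, had opposite signs at the 2 ages, as Tap2 did, 1.49 (SE 0.30, adjusted p = 9.57e-05) in neonatal and -1.14 (SE 0.29, adjusted p = 0.000853) in adult culture. Mr1, which presents vitamin metabolites, did so too, at 0.41 (SE 0.14) and -1.13 (SE 0.14). Of the 16, 11 were lower in AGES with AdAC CellC as the reference and 11 with neoAC CellC, while 3 and 4 were higher (45.2% and 40.5% of all genes were lower, 31.0% and 34.1% higher). H2-T22 was at 0.39 CPM in AGES against 27.5 in AdAC CellC and 35.2 in neoAC CellC. Fcgrt, the B2m-dependent receptor that recycles antibody and albumin, was among the higher ones, at 91.2 CPM in AGES against 24.7 in NSC, 20.5 in AdAC CellC and 26.8 in neoAC CellC (log2 1.88, SE 0.13, adjusted p = 1.05e-12 against NSC). H2-Q1 and H2-Q2 were higher in AGES as well, at low levels of 0.432 and 1.04 CPM, against 0.0217 and 0.127 CPM in AdAC CellC and 0.0944 and 0.0262 CPM in neoAC CellC, where no library held more than 10 counts of either.

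Of the 6 genes for peptide loading and trimming in the endoplasmic reticulum, all 6 were higher in adult culture (median 0.94), and in neonatal culture 3 were higher, 1 lower and 2 did not pass (median 0.50). The shares of all genes beside these counts and those of the proteasome genes are 38.8% higher and 39.2% lower in adult culture, 34.4% and 31.3% in neonatal culture, and 31.7% and 34.0% in AGES against NSC. Tapbpl, which encodes the tapasin relative TAPBPR, was 0.24 CPM in AGES and 0.44 in NSC against 12.9 in AdAC CellC and 15.1 in neoAC CellC, and so lay on the opposite side from Tapbp in AGES (log2 -5.78, SE 0.22, adjusted p = 4.59e-18 against AdAC CellC). Erap1, the peptide trimming enzyme, was 0.81 (SE 0.12) and 0.87 (SE 0.12) log2 units higher in adult and neonatal culture. The chaperones Calr, Canx and Pdia3 were highest in NSC (1595, 1209 and 1203 CPM). The constitutive subunits Psmb5, Psmb6 and Psmb7 were all higher in adult culture (median 0.88) and all lower in AGES than in NSC (median -0.53), and 2 of 3 were higher in neonatal culture (median 0.32). Of 7 proteasome regulators tested, 7 were higher in adult culture, and 6 higher and Psme1 lower (log2 -0.40, SE 0.09) in neonatal culture.

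Regulators of class I genes went both ways. Of 21 tested, 10 were higher and 7 lower in neonatal culture (median 0.12), 9 higher and 3 lower in adult culture (median 0.25), and 12 higher and 5 lower in AGES against NSC (median 0.38). Over all genes, 34.4% were higher and 31.3% lower in neonatal culture, 38.8% and 39.2% in adult culture, and 31.7% and 34.0% in AGES against NSC, so that several of these counts are near the share of all genes. Irf1, which binds interferon response elements, had opposite signs at the 2 ages. It stood at 80.3 CPM in neoAC direct and 23.9 in neoAC CellC (log2 -1.75, SE 0.10, adjusted p = 6.07e-14), against 14.9 in AdAC direct and 34.8 in AdAC CellC (log2 1.22, SE 0.10, adjusted p = 2.94e-11). Irf7, induced by type I interferon, rose by 3.86 in neonatal culture (SE 0.44) and did not pass in adult culture (0.73, SE 0.41, adjusted p = 0.109). Rfxank, a subunit of the RFX complex that NLRC5 joins at class I promoters, was lower in both cultures (log2 -2.13, SE 0.10, in neonatal and -1.82, SE 0.10, in adult astrocytes) and higher in AGES than in NSC (0.91, SE 0.10). Irf1 and Relb were higher in AGES than in NSC (log2 0.72, SE 0.10, and 1.25, SE 0.16). Of the 10 class I pathway genes, 4 were higher there, 2 were lower and 4 did not pass, as given above.

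Of the list of interferon ligands, receptors and their signalling, 8 genes were tested, 4 receptor chains, the kinases Jak1, Jak2 and Tyk2 and the suppressor Socs1, and no ligand. In adult culture 6 were higher, with all 4 receptor chains among them, and Jak2 and Tyk2 were lower (median 0.53, with 38.8% and 39.2% of all genes higher and lower). In neonatal culture 1 was higher, 6 were lower and Ifnar2 did not pass (median -0.36, with 34.4% and 31.3% of all genes). Ifngr1, a chain of the interferon gamma receptor, was the gene that rose in neonatal culture (log2 1.19, SE 0.09, adjusted p = 3.71e-11), and it also rose in adult culture (0.80, SE 0.09) and in AGES against NSC (1.14, SE 0.09). Ifngr2, the other chain of that receptor, rose in adult culture (2.52, SE 0.08) and fell in neonatal culture (-0.35, SE 0.08). The ligands Ifnb1 and Ifng stayed at or below 0.23 CPM in every group mean. MHC class II genes, which mark professional antigen-presenting cells, did not rise with class I in neonatal culture, where 4 of 6 tested were lower and 2 did not pass (median -2.33, with 31.3% of all genes lower). In adult culture 2 were higher, 3 lower and 1 did not pass (median -0.63, with 38.8% and 39.2% of all genes higher and lower). Cd74, the class II invariant chain, stood at 4.26 CPM in AdAC CellC, 4.47 in AdAC direct, 3.53 in neoAC direct and 0.41 in neoAC CellC. The microglia and macrophage markers summed to 5.07 to 9.92 CPM in neoAC CellC against 12.8 to 70.2 in neoAC direct. In AdAC CellC they summed to 20.4 to 35.3 CPM against 18.6 to 27.5 in AdAC direct. The part of such cells in the class I values was not tested.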

How the data were processed

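From stranded mRNA libraries, the authors aligned paired reads to GRCm38 with STAR 2.7.3a, and counted them on exons by gene with featureCounts and Gencode vM12, so the deposited values are raw counts. Strand and multi-mapping settings of the counting are not given in the sources used here. Identifiers were matched to Gencode vM21 (99.5% of 49671 genes). In R 4.3.3, counts were filtered with filterByExpr, scaled by TMM and fitted with edgeR 4.0.16 (quasi-likelihood, robust) in 1 model of the 6 groups. Contrasts were two-sided, adjusted by Benjamini-Hochberg over 19691 genes, with a threshold of 0.05. Standard errors were derived from the fold change and its F statistic. Alternatives used DESeq2 1.42.0, other scalings and filters, a replicate block and fits without 1 library. The procedure was tested on simulated data. Replicate numbers are shared by groups, and the main fit did not pair the libraries by them (1 of 28 pairs of deviations correlated above 0.1). Named genes were the 10 listed genes, the genes of pathway lists, and for each gene the 3 most similar by Pearson r over 24 libraries among genes with a mean of at least 1 CPM. The genes and lists were chosen with earlier results of these data known, so they give no independent support. The values of 1 regulator are not reported here.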

Additional observations from a re-analysis of the deposited data

Results flagged for a closer look

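In 3 of the 60 groups of 4 libraries, 1 library stood apart by Dixon's test, where chance gives about 1 in 20. NSC replicate 2 was the highest NSC library for H2-K1 (84.4 CPM, the others at 39.3 to 44.4) and for B2m (106 CPM, the others at 71.2 to 75.4). AdAC direct replicate 4 was the lowest of its group for Tap2 (38.1 CPM, the others at 45.9 to 46.5).

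The culture difference itself differed between adult and neonatal astrocytes for 9 of the 10 genes by the interaction term. Of all genes tested, 33.2% were lower and 35.4% higher by the same term. The log2 difference, adult minus neonatal, was -3.10 for Psmb9, -3.01 for Nlrc5, -1.51 for Tap2, -1.28 for Psmb8, -1.16 for H2-D1, -1.14 for H2-K1, -0.63 for Tap1, 0.34 for Tapbp and 0.80 for Psmb10. Markers of other cells moved too, in both directions. Of the 6 oligodendrocyte markers, 5 were lower in adult culture (median log2 fold change -1.98), while 5 were higher and 1 lower in neonatal culture (median 1.29). Of the 4 ependymal and choroid markers, 3 were lower in adult culture (median -2.49) and 3 higher in neonatal culture (median 2.42). The median interaction value was above 0 for microglia and macrophage (2.87), endothelial (3.00) and mural, fibroblast and meningeal markers (0.47). The part of these other cells in the values above was not tested.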

How the results depend on the processing

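Over 80 member values, other settings gave 534 values, of which 500 kept their direction and their side of the threshold, 14 lost the call, 9 gained one and 11 changed sign. Leaving out each library in turn gave 1920 values, of which 1884 kept both, 14 lost the call, 5 gained one and 17 changed sign. The number of genes higher in AGES than in neoAC CellC fell from 1 to 0 under DESeq2 size factors, library size alone, a filter of 10 counts per library throughout, DESeq2's Wald test, a fit of only the groups compared, and a threshold of 1 on the log2 fold change, and was 0 to 1 with 1 library left out. The number with a larger culture difference in adult astrocytes fell from 2 to 1 under the first 4 of these and with no filter, and to 0 under the fold threshold. Requiring 10 counts left 7 of the 10 genes to test, so fewer could be called. Calls fell from 66 to 42, with 1 gene lower in AGES against NSC, 4 lower in AGES against AdAC CellC, 3 higher in neoAC CellC against AdAC CellC, 3 lower in neoAC direct against AdAC direct and 4 lower in the interaction. A fit of only NSC and AGES left 1 lower gene, as did the fold threshold, and leaving out 1 library gave 1 to 2. The fold threshold left 0 genes lower in adult culture, 0 higher in AGES against AdAC CellC, 1 higher in neoAC CellC against AdAC CellC and 0 higher in neoAC direct against AdAC direct. Adding 10 counts to both subunits shrank some differences between groups in log2 ratio, none with a change of sign. For Psmb8 to Psmb5 the difference went from -4.89 to -3.42 (AGES against AdAC CellC) and from -5.78 to -4.29 (AGES against neoAC CellC). For Psmb9 to Psmb6 it went from 3.71 to 3.04 (neonatal culture) and from -2.69 to -1.48 (AGES against NSC). It also went from -3.18 to -1.82 (AGES against AdAC CellC) and from -4.20 to -2.80 (AGES against neoAC CellC). In neoAC direct against AdAC direct it went from -2.43 to -1.91.

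Signs changed for small differences. Psmb8 in AGES against NSC became 0.0074 with DESeq2 size factors and 0.0094 with the Wald test. Tap2 in AGES against AdAC CellC became -0.17 with library size alone and -0.046 with at least 10 counts, and Tapbp in AGES against neoAC CellC -0.084 with library size alone. Psmb10 in neoAC CellC against AdAC CellC became 0.10 with DESeq2 size factors, the Wald test or at least 10 counts, 0.081 with library size alone, 0.079 with no filter, and 0.092 in the fit of only these groups. With 1 library left out, values ran from -0.55 to 0.13 for H2-D1 and -0.29 to 0.15 for Psmb8 in AGES against NSC, -0.012 to 0.11 for Tap2 in AGES against AdAC CellC, and in neoAC CellC against AdAC CellC from -0.067 to 0.24 for H2-K1, -0.11 to 0.16 for H2-D1, -0.13 to 0.28 for B2m and -0.044 to 0.055 for Psmb10. The cause was not tested.

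Libraries with the same replicate number had deviations that correlated at -0.10 to 0.11, and the main fit did not pair them. Such weak correlation cannot exclude that some of them share an isolation. With the number as a replicate block, 79 of 80 member values kept their direction and call, and B2m in AGES against neoAC CellC lost it (-0.37, adjusted p = 0.0613, edgeR). Depth limits Psmb8 and Nlrc5 in NSC and AGES, at 1 to 9 counts a library, and Psmb9 in AGES, at 4 to 10.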
